A study of Mus musculus with 13 samples.

Results

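The Iroquois homeobox genes Irx1, Irx2, Irx3, Irx4, Irx5 and Irx6 were followed through ATAC-seq of cultured oligodendrocyte progenitor cells (OPCs), the cells that divide and mature into the myelinating oligodendrocytes of the brain. The 6 genes were taken by name from the 55450 genes of the GENCODE M21 annotation of mm10. They lie in 2 clusters, and every peak between the outermost genes of a cluster and 100 kb beyond them was also taken, which gave 110 of the 99746 merged peaks of the series. A merged peak is the union of the peaks of all libraries that overlap by at least 1 bp. ATAC-seq marks accessible DNA by insertion of the Tn5 transposase, and each library was deposited as a list of broad peaks called on that library alone.

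OPCs had been immunopanned with an antibody to PDGFRa from the brains of pups aged P5 to P7 and kept in proliferation medium with forskolin, CNTF, NT-3 and PDGF. Brainstems and dorsal telencephalons (named cortex in the labels, but with corpus callosum and hippocampus) were pooled over the pups of litters by region and genotype, so a library is a culture of pooled animals. In K27M cultures the H3-3a-LSL-K27M knock-in allele, which encodes histone H3.3 with lysine 27 changed to methionine, had been activated by hGFAP-Cre (AMGFAP-Cre in the labels), a transgene on the human GFAP promoter that acts in neural stem and progenitor cells and therefore not in OPCs alone. Control cultures came from the same breeding without the active mutation, and the alleles of the control pups are not given for these cultures. Brainstem cultures were controls 51, 59 and 61 (n = 3) and K27M 41, 59 and 61 (n = 3), and telencephalon cultures were controls 51, 59 and 61 (n = 3) and K27M 41, 51, 59 and 61 (n = 4), 13 libraries in all. Control and K27M cultures of 1 number were matched by the study.

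Irx genes encode homeodomain transcription factors of the TALE class, named after the Drosophila Iroquois complex. In the vertebrate neural plate they are expressed from the diencephalon backwards and are absent from the telencephalon, and the boundary of Irx3 with Six3 helps to set the boundary within the forebrain. In the ventral neural tube Irx3 and Olig2 repress each other, which separates an interneuron domain from the domain of motor neurons and OPCs. Irx4 is best known from the ventricles of the heart, Irx5 from the heart and the bipolar cells of the retina, and Irx6 from the retina. Homeobox gene clusters of this kind are commonly covered by Polycomb repression, marked by H3K27me3, in cells that do not use them, and H3 K27M inhibits the enzyme that writes this mark.

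In mm10, Irx1 (chr13:71957921-71963723, minus strand), Irx2 (chr13:72628820-72634198, plus strand) and Irx4 (chr13:73260479-73269608, plus strand) form a cluster on chromosome 13. Irx3 (chr8:91798525-91802067, minus strand), Irx5 (chr8:92357625-92376286, plus strand) and Irx6 (chr8:92674288-92680956, plus strand) form the cluster on chromosome 8. A promoter was the window from 2 kb before to 1 kb after any annotated start. Of the members, 3 share their promoter peak with a noncoding neighbour. Crnde, a long noncoding RNA gene, starts 1505 bp before Irx5 on the opposite strand, the antisense gene Irx3os has a start 108 bp from a start of Irx3, and the lincRNA gene Gm20554 starts 256 bp before Irx2 on the opposite strand. A promoter peak of Irx5, Irx3 or Irx2 cannot be assigned to 1 gene of its pair.

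Of the 6 members, 3 (Irx2, Irx3 and Irx4) matched an entry in the RefSeq promoter table of GRCm38.p6, the assembly of mm10. The sequences below include stretches where peak calls differed by region and stretches where they did not. Capitals mark bases that lay inside a peak in all 6 brainstem libraries and in at most 3 of the 7 telencephalon libraries. They are the RefSeq promoters of Irx2 (chr13:72628570-72628869, plus strand) and Irx3 (chr8:91801605-91801904, minus strand), the promoter of Irx4 (chr13:73260247-73260546, plus strand) as the member that had no peak, the promoter of Crnde (chr8:92356071-92356370, minus strand) as the end of the shared Irx5 peak that was open in every library, and the stretch at -550 to -251 bp from the first Irx5 start (chr8:92357075-92357374, plus strand), read from the RefSeq genome.
Irx2 promoter: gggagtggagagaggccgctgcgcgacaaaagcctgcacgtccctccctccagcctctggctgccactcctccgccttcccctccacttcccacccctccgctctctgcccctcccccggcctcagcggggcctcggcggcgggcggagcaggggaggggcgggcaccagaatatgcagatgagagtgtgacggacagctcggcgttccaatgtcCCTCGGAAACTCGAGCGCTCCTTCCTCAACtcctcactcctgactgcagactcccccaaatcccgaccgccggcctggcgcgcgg
Irx3 promoter: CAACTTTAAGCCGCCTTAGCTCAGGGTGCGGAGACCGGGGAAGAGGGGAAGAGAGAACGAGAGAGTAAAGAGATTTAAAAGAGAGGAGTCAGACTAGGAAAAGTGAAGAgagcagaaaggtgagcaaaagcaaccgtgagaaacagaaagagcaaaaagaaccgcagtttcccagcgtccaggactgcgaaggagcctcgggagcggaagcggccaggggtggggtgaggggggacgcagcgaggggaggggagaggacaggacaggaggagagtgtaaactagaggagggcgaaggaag
Irx4 promoter: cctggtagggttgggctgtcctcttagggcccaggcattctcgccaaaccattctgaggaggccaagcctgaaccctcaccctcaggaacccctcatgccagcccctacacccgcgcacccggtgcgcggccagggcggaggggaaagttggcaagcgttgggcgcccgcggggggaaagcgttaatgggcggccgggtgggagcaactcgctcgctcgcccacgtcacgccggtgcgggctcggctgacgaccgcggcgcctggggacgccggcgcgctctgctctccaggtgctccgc
Crnde promoter: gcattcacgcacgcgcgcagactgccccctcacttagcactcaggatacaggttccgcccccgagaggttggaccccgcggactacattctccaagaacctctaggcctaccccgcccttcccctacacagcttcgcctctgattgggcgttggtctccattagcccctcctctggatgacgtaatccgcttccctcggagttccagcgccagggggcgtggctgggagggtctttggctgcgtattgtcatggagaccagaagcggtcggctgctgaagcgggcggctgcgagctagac
Irx5 upstream stretch: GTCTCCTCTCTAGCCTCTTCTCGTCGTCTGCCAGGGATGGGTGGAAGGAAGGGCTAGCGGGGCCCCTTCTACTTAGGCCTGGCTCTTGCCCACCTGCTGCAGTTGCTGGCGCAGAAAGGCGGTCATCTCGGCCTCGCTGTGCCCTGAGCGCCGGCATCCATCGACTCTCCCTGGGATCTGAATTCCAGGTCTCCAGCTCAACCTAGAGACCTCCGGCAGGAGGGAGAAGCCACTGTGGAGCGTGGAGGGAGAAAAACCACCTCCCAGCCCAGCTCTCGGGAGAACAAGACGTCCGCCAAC

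All 300 bases of the Irx5 stretch are capitals, since each of them lay in a peak in 6 brainstem libraries and in 2 to 3 telencephalon libraries, while every base of the Crnde promoter lay in a peak in all 13. The Irx3 promoter holds 109 capitals at its 5′ end, the Irx2 promoter holds 30, and no base of the Irx4 promoter lay in a peak of any library. All 5 stretches hold more CpG than the median promoter, by differing amounts. The Irx4 promoter holds 31 CpG, the Irx2 promoter 25, the Crnde promoter 22, the Irx5 stretch 15 and the Irx3 promoter 14, against a median of 7 over the 32851 RefSeq promoters of this length. The Irx4 promoter, closed in every list, had more CpG than 89.44% of those promoters. The share was 81.57% for the Irx2 and 76.9% for the Crnde promoter, but 65.36% for the Irx5 stretch and 63.71% for the Irx3 promoter. Neither the palindromic Iroquois motif ACANNTGT, which 7.376% of the promoters hold, nor the SOX motif ACAATG, which 12.57% hold, was found on either strand of the 5 stretches.

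The lists held 16879 peaks (control telencephalon 59) to 52466 peaks (control brainstem 61) and no read counts, so the sequencing depth is unknown and a missing peak means only that none was called. The measure used is the fold enrichment of a peak over local background in the same library, which is a mean over the whole peak and had a median of 2.70 to 3.08 per list. Of 6 OPC marker promoters, 5 (Pdgfra, Olig1, Olig2, Sox10 and Ptprz1) had a peak in all 13 libraries and the other, Cspg4, in 3. These calls do not set OPCs apart from neurons or astrocytes, since 3 of 5 neuronal promoters (Snap25, Syt1 and Tubb3) and 3 of 5 astrocyte promoters (Gfap, Slc1a2 and Gja1) were also called in all 13, with mean folds of up to 4.30 (Syt1) against 2.28 to 2.85 at the 5 OPC promoters. The promoter of the hindbrain gene Hoxa2 was called in 6 of 6 brainstem libraries against 0 of 7 from telencephalon, and that of the forebrain gene Emx2 in 2 of 6 and 7 of 7. The Hoxa2 peaks stood near the low end of the brainstem lists, with a mean fold of 2.13 and a mean percentile of 1.185. The targeted gene H3-3a (H3f3a in the annotation) had a promoter peak in 13 libraries, which checks nothing about the allele. The promoter of Prm1, part of whose sequence the Cre construct carries by the study's methods, had a peak in 7 of 7 K27M and 0 of 6 control libraries. Markers of other cells were called in like numbers in both regions: 2 to 3 of 5 oligodendrocyte promoters in brainstem libraries and 1 to 3 in telencephalon libraries (Mog and Mag in none), 3 to 5 of 5 astrocyte promoters in both, 4 to 5 and 3 to 5 of 5 neuronal promoters, 1 and 0 to 2 of 5 microglial promoters (Cx3cr1, Csf1r and Ctss in none), 0 to 2 of 5 endothelial promoters in both (Tek and Cdh5 in none) and 1 to 2 and 0 to 1 of 5 meningeal and mural promoters (Dcn, Pdgfrb and Lum in none). Their part in the results was not tested. In a culture, more cells with an open promoter and a more open promoter per cell cannot be told apart.

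Irx3, Irx5 and Irx6 had a promoter peak in all 13 libraries, Irx1 and Irx2 in 12, and Irx4 in 0. The library without an Irx1 peak was K27M telencephalon 61, and the one without an Irx2 peak was control telencephalon 59, which had the shortest list. The comparisons asked whether the open members differed by region of origin, whether they differed by genotype, and whether other peaks of the clusters differed.

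Irx5 was the only member whose fold passed the test by region, and it was lower in brainstem-derived OPCs. The fold of its promoter peak was 2.68, 2.77 and 2.63 in control brainstem cultures 51, 59 and 61, and 2.71, 2.71 and 2.46 in K27M brainstem cultures 41, 59 and 61. In telencephalon-derived OPCs it was 2.84, 3.05 and 3.47 in control cultures 51, 59 and 61, and 3.49, 3.81, 4.34 and 3.61 in K27M cultures 41, 51, 59 and 61. No telencephalon value was as low as the highest brainstem value, and the 4 K27M telencephalon cultures were the highest of all. As a position within its own list, the Irx5 peak stood between the 13.8 and the 43.9 percentile of fold in brainstem libraries and between the 60.0 and the 96.4 percentile in telencephalon libraries.

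The mean fold at Irx5 was 2.66 ± 0.107 (SD, n = 6) in brainstem and 3.52 ± 0.491 (SD, n = 7) in telencephalon cultures. With log2 fold centred on the median of each library and the culture number as a block, limma gave a difference of -0.46 (brainstem minus telencephalon, SE 0.0707, adjusted p = 0.00154 over 11483 promoters with a peak in all 13 libraries). Of these promoters, 2 (0.0174%) passed an adjusted p of 0.05, both lower in brainstem, and they were Irx5 and Crnde through the same peak. As deposited, without centring, the 2 regions did not overlap and brainstem was lower at 2 promoters (0.0174%), again this pair. The call was lost in the fit of uncentred log2 fold (-0.38, limma adjusted p = 0.991) and in the fit of within-list percentiles (-52.1 points, adjusted p = 0.106). Within every matching culture number and genotype the brainstem culture was the lower at Irx5, in 6 of 6 pairs, with log2 ratios from -0.68 to -0.09, which held for 0.0958% of the promoters tested.

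**Figure D1:**
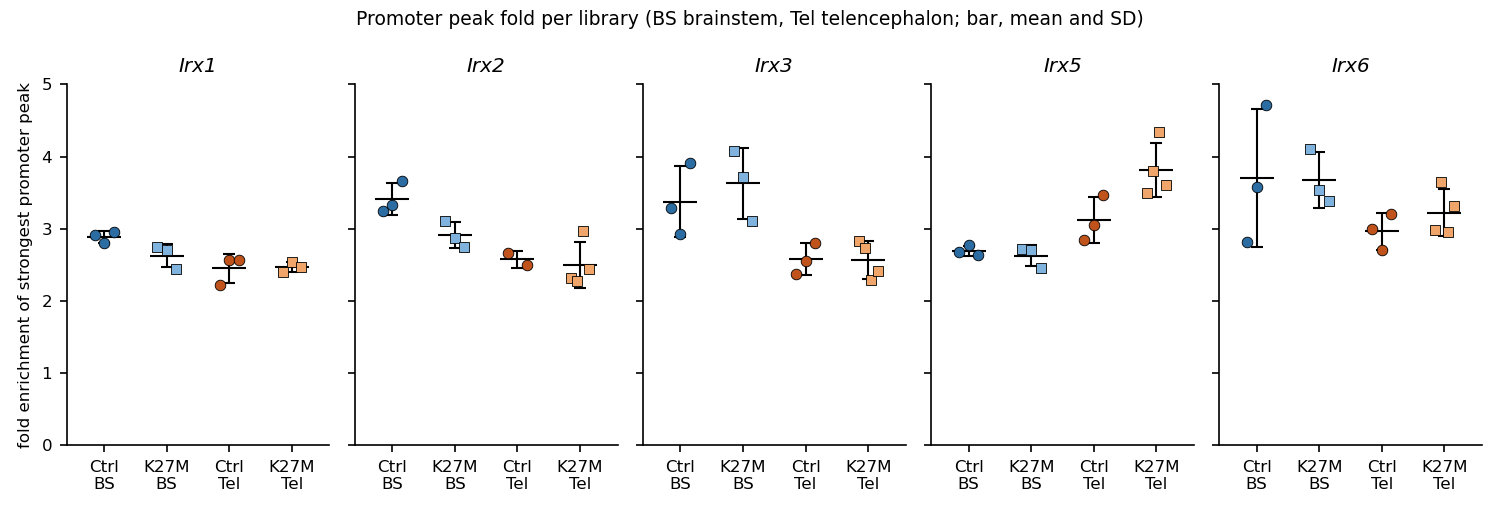
Fold enrichment of the strongest promoter peak over local background (vertical axis) in each library, by group, for the 5 members with a peak; points are libraries and bars give the mean with its SD. Irx5 is lower in all 6 brainstem libraries (2.46 to 2.77) than in all 7 telencephalon libraries (2.84 to 4.34), and Irx3 is higher in all 6 brainstem libraries (2.93 to 4.08) than in all telencephalon libraries (2.29 to 2.83).

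The width of the Irx5 peak is given beside its fold. In brainstem cultures the peak covered 2071 to 2304 bp of the promoter window, with 2183, 2071 and 2264 bp in the controls and 2304, 2234 and 2277 bp in K27M. In telencephalon cultures it covered 1544, 1078 and 2192 bp in the controls 51, 59 and 61, and 1185, 1973, 790 and 1091 bp in K27M cultures 41, 51, 59 and 61. The brainstem values were close together, and telencephalon values ran from 790 bp up to the range of the brainstem.

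The ends of the peak were compared along the gene. The 5′ edge of the peak, beyond the Crnde start, was at -2320 to -1783 bp from the first Irx5 start in brainstem and at -2296 to -1773 bp in telencephalon cultures. The 3′ edge was at 287 to 457 bp inside Irx5 in brainstem cultures (median 325.5) and at -1045 to 191 bp in telencephalon cultures (median -635). The first start of Irx5 therefore lay under the peak in 6 of 6 brainstem libraries and 1 of 7 telencephalon libraries, the exception being control telencephalon 61. The stretch printed above lies between the median 3′ edges of the 2 regions. Its calls, in every brainstem list and in few telencephalon lists, therefore restate these edges.

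**Figure D2:**
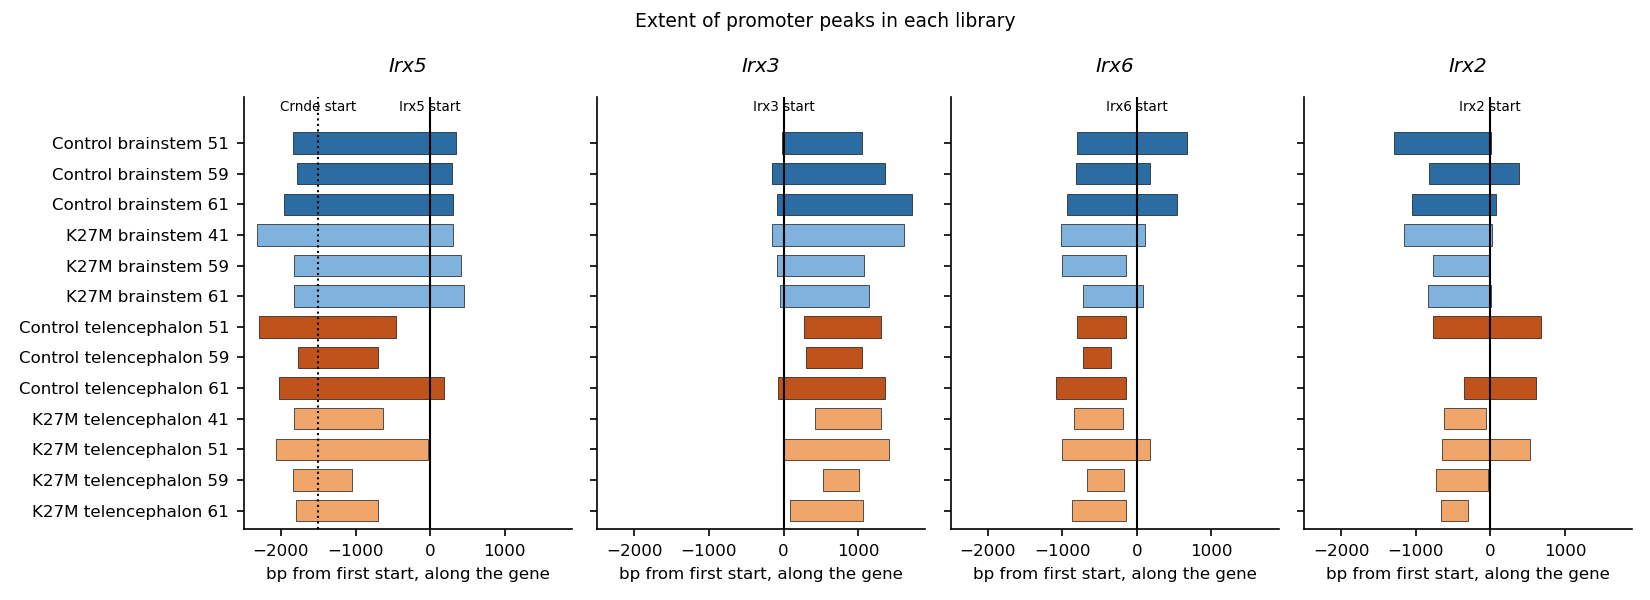
Extent of the promoter peaks of Irx5, Irx3, Irx6 and Irx2 in each library, in bp along the gene from its first annotated start; each bar is 1 called peak and the dotted line in the Irx5 panel is the start of Crnde. The Irx5 bars of the brainstem libraries end 287 to 457 bp inside the gene, and 6 of 7 telencephalon bars end before the start.

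A mean over a long peak and a mean over a short one are different quantities, so 2 further measures were added after the data were seen. On the log2 scale, bases covered at the Irx5 promoter were 0.71 higher in brainstem (SE 0.161, limma adjusted p = 0.874), and bases covered times their mean fold were 0.26 higher (SE 0.148, adjusted p = 0.958), where 0.00871% of promoters passed on each measure. Neither passed at Irx5, and both have the opposite sign to the fold. The percent of the window covered, centred per library, was 26.0 points higher in brainstem (SE 5.08, adjusted p = 0.381 over 19308 promoters, of which 0.0518% passed). From the widest to the narrowest, the 7 telencephalon peaks covered 2192, 1973, 1544, 1185, 1091, 1078 and 790 bp. Their folds in that order were 3.47, 3.81, 2.84, 3.49, 3.61, 3.05 and 4.34. The part of peak width in the fold difference was not tested.

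**Figure D3:**
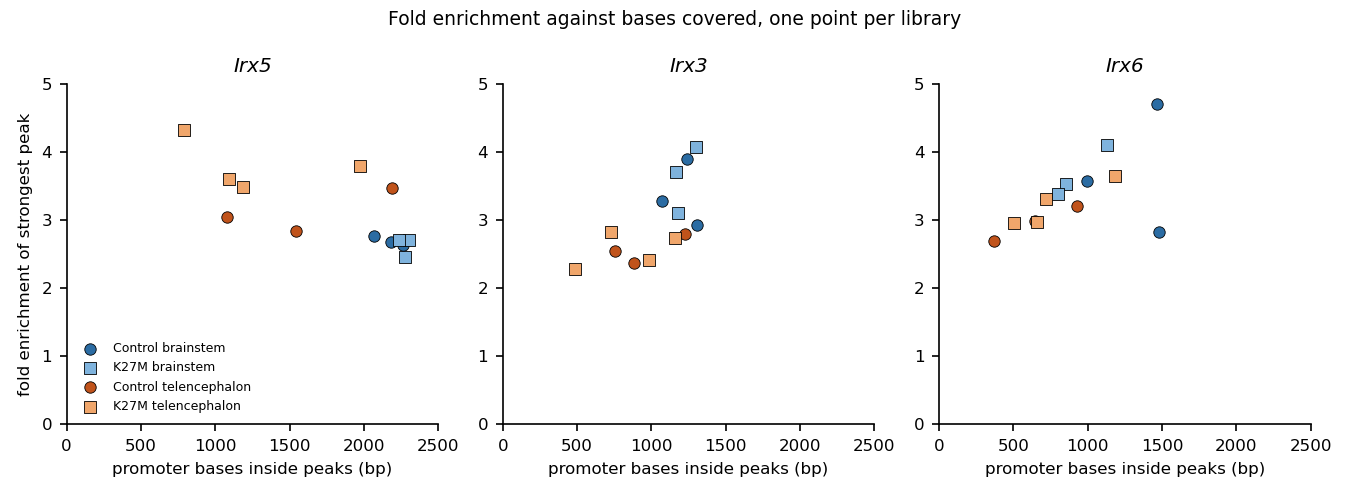
Fold of the promoter peak (vertical axis) against bp of the promoter window in peaks (horizontal axis) at Irx5, Irx3 and Irx6; each point is 1 library, coloured by group. At Irx5 the 6 brainstem libraries lie at 2071 to 2304 bp with folds of at most 2.77, and the telencephalon libraries lie above them in fold over 790 to 2192 bp.

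Irx3, the member with the longest record in neural tube patterning, had the reverse order of fold. Its promoter peak had a fold of 3.29, 2.93 and 3.91 in control brainstem cultures 51, 59 and 61 and of 4.08, 3.71 and 3.11 in K27M brainstem cultures 41, 59 and 61. In telencephalon cultures the fold was 2.37, 2.55 and 2.81 in controls and 2.83, 2.74, 2.29 and 2.41 in K27M cultures 41, 51, 59 and 61. All 6 brainstem values were above all 7 telencephalon values. The means were 3.50 ± 0.463 (SD, n = 6) and 2.57 ± 0.222 (SD, n = 7).

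The difference at Irx3 was 0.35 on the log2 scale (SE 0.0715), and its adjusted p of 0.0585 in the limma fit missed the threshold. Irx3 and Irx3os, through the same peak, were among 6 promoters (0.0523%) at which all brainstem libraries were above all telencephalon libraries as deposited. The brainstem culture was higher in 6 of 6 pairs of 1 culture number and genotype, with log2 ratios from 0.20 to 0.70, but this held for 8.25% of all promoters. Without the culture block the adjusted p was 0.0381. With 1 library left out, it was 0.0287 without control telencephalon 59 and 0.0412 without control brainstem 59. It was 0.0465 without K27M telencephalon 41 and 0.05 (just under the threshold before rounding) without K27M brainstem 41. The other 9 of 13 omissions missed the threshold, with an adjusted p of up to 0.52 (without K27M brainstem 59). The limma fit of within-list percentiles missed it too (45.1 points, adjusted p = 0.886).

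The Irx3 peak covered 1068, 1307 and 1238 bp of the window in control and 1302, 1165 and 1181 bp in K27M brainstem cultures, against 881, 754 and 1226 bp in control and 729, 1161, 485 and 981 bp in K27M telencephalon cultures. The 3′ edges were alike, at 1051 to 1720 bp and 1017 to 1416 bp inside the gene. The 5′ edge was at -154 to -16 bp from the first GENCODE start in brainstem and at -73 to 533 bp in telencephalon cultures. That start was therefore covered in 6 of 6 and 2 of 7 libraries. The RefSeq promoter printed above lies inside the gene as GENCODE annotates it. Each of its bases lay in a peak in 6 brainstem and in 3 to 6 telencephalon libraries. Bases covered were 0.46 (SE 0.173) and bases times fold 0.81 (SE 0.20) higher in brainstem on the log2 scale, with limma adjusted p of 0.981 and 0.728. None of the 3 estimates at Irx3 passed, and all were above 0.

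Irx6 lies at the far end of the chromosome 8 cluster. Its fold was 2.82, 3.58 and 4.72 in control and 4.11, 3.53 and 3.39 in K27M brainstem cultures, and 2.99, 2.70 and 3.20 in control and 2.98, 3.65, 2.96 and 3.31 in K27M telencephalon cultures. The regions overlapped, with control brainstem 51 below 6 of the 7 telencephalon values. The means were 3.69 ± 0.651 (SD, n = 6) and 3.11 ± 0.307 (SD, n = 7), and the log2 difference was 0.15 (SE 0.0755, limma adjusted p = 0.945). Brainstem was higher in 5 of 6 pairs. Pairs were compared without centring, and within each pair the brainstem list had the higher median fold. Of the promoters with a peak in every library, 8.25% were higher in brainstem in every pair and 0.0958% were lower in every pair. The peak was wider in most brainstem libraries, with 1477, 993, 1464, 1129, 855 and 799 bp against 646, 370, 931, 659, 1187, 502 and 717 bp. In log2 bases covered, the difference was 0.72 (SE 0.161, adjusted p = 0.874), and in bases times fold 0.88 (SE 0.178, adjusted p = 0.402). The start of Irx6 lay under the peak in 5 of 6 brainstem libraries and 1 of 7 telencephalon libraries.

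On chromosome 13 no member had a promoter peak in every library. Irx2, which in the mouse is expressed with Irx1 in much of the embryo, had folds of 3.24, 3.32 and 3.66 in control and 3.10, 2.87 and 2.75 in K27M brainstem cultures. In telencephalon cultures it had 2.66 and 2.49 in controls 51 and 61, no peak in control 59, and 2.31, 2.27, 2.97 and 2.44 in K27M. The only telencephalon value inside the brainstem range was that of K27M culture 59. The means were 3.16 ± 0.327 (SD, n = 6) and 2.52 ± 0.258 (SD, n = 6).

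Irx2 and Irx1 were tested in a limma fit of the 15595 promoters with a peak in at least 10 libraries, in which a library without a peak was left out for that gene. Irx2 was 0.25 higher in brainstem on the log2 scale (SE 0.0932, unadjusted p = 0.0129 where 5.32% of promoters were under 0.05, adjusted p = 0.9). Without centring, 4 of 5 pairs had this direction, which was also that of the list medians. The first Irx2 start was covered in 5 of 6 brainstem and 3 of 7 telencephalon libraries. A second, separate peak within the Irx2 window, at chr13:72631481-72632055, was called in 2 K27M telencephalon libraries and in no other.

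Irx1, the outermost member of the cluster, had folds of 2.91, 2.80 and 2.96 in the brainstem controls and 2.74, 2.70 and 2.44 in K27M brainstem cultures. In telencephalon cultures they were 2.22, 2.56 and 2.57 in the controls and 2.40, 2.54 and 2.46 in K27M cultures 41, 51 and 59. K27M brainstem 61 lay among the telencephalon values and the other 5 brainstem values lay above them. The log2 difference in the same fit was 0.11 (SE 0.0831, adjusted p = 0.991). Without centring, brainstem was higher in 5 of 5 pairs, the direction of the list medians. The share of 8.25% given above leaves out Irx1 and rests on 6 pairs. An annotated start of Irx1 was covered in 4 of 6 brainstem and 1 of 7 telencephalon libraries. Further peaks at chr13:71956402-71957470, beyond the 3′ end of Irx1, and at chr13:71958697-71960226, inside it, were each called in 3 brainstem and 0 telencephalon libraries, with mean folds of 2.39 and 2.05.

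Coverage of the start itself was compared by a two-sided Fisher's exact test over the 1566 promoters whose start was covered in 5 to 8 of 13 libraries, a test added after the data were seen. No promoter passed an adjusted p of 0.05, and 2.17% had an unadjusted p under 0.05. The unadjusted p was 0.00466 for Irx5 (6 of 6 against 1 of 7), 0.0291 for Irx6, 0.103 for Irx1 and 0.266 for Irx2, and the adjusted p was 1 for each. Every list was also reduced to its 16879 most significant peaks. A GENCODE start of Irx3 was then covered in 6 of 6 brainstem and 0 of 7 telencephalon libraries. Fisher's exact p was 0.000583, the smallest that 6 against 7 libraries can give, and the adjusted p was 0.142 over 1708 promoters. Of these promoters, 3.34% had an unadjusted p under 0.05. In these lists the 2 telencephalon peaks at Irx3 began 298 and 424 bp inside the gene, so the 0 of 7 holds for the GENCODE starts only. At equal numbers Irx5 again had 6 and 1, Irx2 5 and 1, Irx6 4 and 1, and Irx1 3 and 0 by its first start. The 5 open members all had their start under a peak in a larger share of brainstem than of telencephalon libraries. Across the 1708 promoters tested at equal numbers, which leave out Irx1, 54.7% did. Across the 1566 tested in the full lists, which leave out Irx3, 47.3% did.

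**Figure D4:**
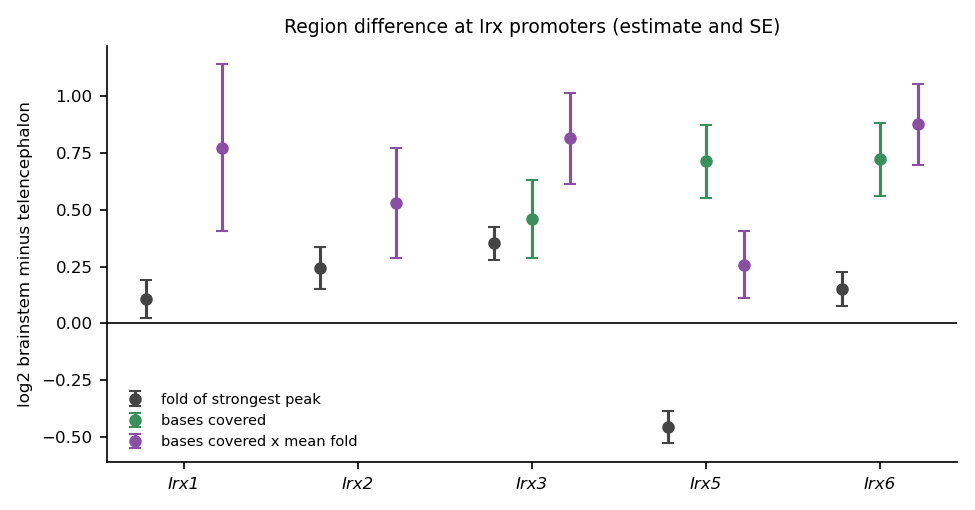
Difference between brainstem and telencephalon on the log2 scale (vertical axis; points are estimates and bars their SE) for fold, bases covered, and bases covered times mean fold. Irx1 and Irx2 are from fits of promoters with a peak in at least 10 libraries and have no point for bases covered. Irx5 lies at -0.46 for fold but at 0.71 and 0.26 for the other measures, while Irx3 and Irx6 lie above 0 for all 3.

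The region effect was also taken within each genotype. At Irx5 it was -0.34 (SE 0.102, limma adjusted p = 0.921) in control and -0.57 (SE 0.0979, adjusted p = 0.00975) in K27M cultures, where 0.0261% of promoters passed, against 0% in control. At Irx3 it was 0.25 (SE 0.103, adjusted p = 0.96) in control and 0.46 (SE 0.099, adjusted p = 0.14) in K27M cultures. Both estimates were larger in K27M cultures, but the difference between genotypes was -0.23 (SE 0.141, unadjusted p = 0.116, adjusted p = 1) at Irx5 and 0.21 (SE 0.143, adjusted p = 1) at Irx3. Neither difference was beyond the spread, and 0% of promoters passed the test of this difference.

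K27M and control cultures did not differ detectably at any member. Over both regions the log2 difference of fold (K27M minus control) was 0.10 (SE 0.0774) at Irx5, -0.05 (SE 0.0783) at Irx3 and 0.01 (SE 0.0827) at Irx6, each with a limma adjusted p of 0.999. No promoter passed the threshold for genotype (0%), and 4.39% had an unadjusted p under 0.05. In the fit of promoters with a peak in at least 10 libraries, Irx1 stood at -0.13 (SE 0.0914) and Irx2 at -0.16 (SE 0.101), also with an adjusted p of 0.999.

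Pairs of 1 culture number and region gave the same picture. K27M was higher than control at Irx5 in 3 of 5 pairs, at Irx6 in 3 of 5 and at Irx3 in 2 of 5. At Irx2 it was lower in 4 of 4 pairs with both values, with log2 ratios from -0.41 to -0.03. At Irx1 it was lower in 3 of 4. Over promoters with a peak in all 13 libraries, K27M was lower in 5 of 5 pairs at 0.296%. That share leaves out Irx2 and rests on 5 pairs rather than 4. Among telencephalon cultures alone, Irx5 was 0.21 higher in K27M (SE 0.099, unadjusted p = 0.0388 in limma, adjusted p = 1), with 4.09% of promoters under 0.05, and among brainstem cultures the difference was -0.01 (SE 0.11). Bases covered at Irx5, Irx3 and Irx6 stood at -0.16, -0.14 and -0.13 on the log2 scale (K27M minus control), with adjusted p of 0.991.

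Irx4, the gene of the heart ventricles, had no promoter peak in any library, in the full lists or at equal numbers. Its CpG-rich promoter printed above was the only one of the 6 without a call, and no difference by region or genotype could be measured. The nearest peak called in all 13 libraries lay 70.5 kb from its start, at the promoter of Mrpl36, which encodes a mitochondrial protein. It only reaches the edge of the promoter window of the neighbouring Ndufs6, which had a promoter peak in 8 libraries.

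The interval of Irx1, Irx2 and Irx4 (chr13:71857921-73369608, 1512 kb) held 59 merged peaks and that of Irx3, Irx5 and Irx6 (chr8:91698525-92780956, 1082 kb) held 51, promoters included. Of these, 9 and 8 lay at an annotated promoter, 4 and 3 of them at a promoter of a member. Of all merged peaks in the intervals, 2 and 5 were called in all 13 libraries (3.39% and 9.80%), among them the promoter peaks of Irx3, Irx5, Irx6 and Mrpl36, and 27 and 25 were called in 1 library. Peaks per library in the first interval numbered 12 to 35 in brainstem (median 16.5) and 5 to 22 in telencephalon cultures (median 15). In the second they numbered 11 to 28 (median 19.5) and 7 to 24 (median 17). The ranges overlapped, and the shortest list, that of control telencephalon 59, held the fewest in each interval (5 and 7).

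With equal peak numbers the first interval held 4 to 7 peaks in brainstem (median 5.5) and 3 to 5 in telencephalon cultures (median 4), and the second 5 to 9 (median 6.5) and 4 to 7 (median 5). The DNA in these peaks was 2.95 to 6.87 kb and 2.12 to 4.32 kb in the first interval, and 6.32 to 9.30 kb and 4.13 to 6.92 kb in the second. Brainstem medians were higher in both intervals, with overlap in each.

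**Figure D5:**
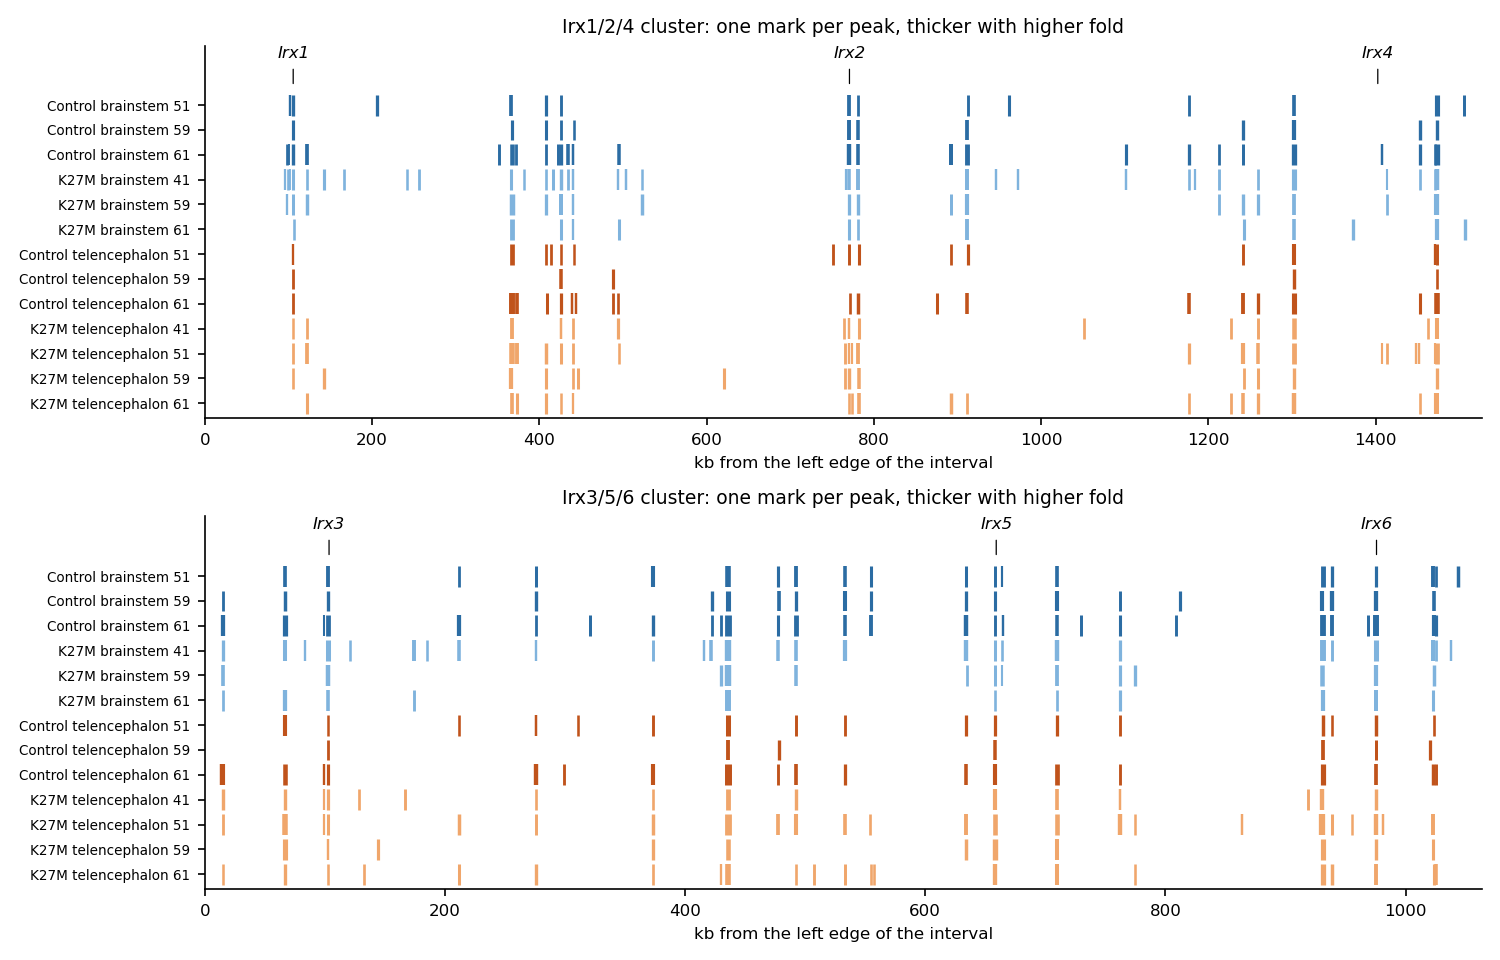
Called peaks of each library across the intervals of Irx1, Irx2 and Irx4 (upper) and of Irx3, Irx5 and Irx6 (lower), by distance in kb along the interval, with 1 row per library and the members marked. Few positions are called in all libraries, 2 in the upper and 5 in the lower interval.

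The strongest peak of either interval was not at a promoter. It lay at chr8:92133457-92134910, in the gene-poor stretch between Irx3 and Irx5 and 223.4 kb from the Irx5 start. Its fold was 4.47, 4.13 and 5.31 in control and 5.01, 5.04 and 4.72 in K27M brainstem cultures, and 4.09, 3.29 and 5.42 in control and 3.95, 5.32, 3.79 and 4.49 in K27M telencephalon cultures. The regions overlapped, and it stood between the 82.4 and the 99.3 percentile of its list in every library. Its log2 difference was 0.10 by region (SE 0.0634, adjusted p = 0.843) and 0.09 by genotype (SE 0.0695, adjusted p = 0.999) in a limma fit of the 13075 merged peaks called in all libraries.

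In that fit, 3 of 13075 merged peaks (0.0229%) passed for region, all lower in brainstem, and the Irx5 and Crnde peak was 1 of them (log2 difference -0.45, SE 0.0725, adjusted p = 0.00893). That call was lost without control brainstem 61 (adjusted p = 0.0998), K27M brainstem 59 (0.16), control telencephalon 59 (0.062), control telencephalon 61 (0.0646) or K27M telencephalon 41 (0.0516). The Irx3 peak had 0.36 (SE 0.0728, adjusted p = 0.0721) and the Irx6 peak 0.16 (SE 0.0774, adjusted p = 0.781). The distal peak at chr8:92628726-92629896, 45.0 kb before Irx6, had -0.01 (SE 0.0708, adjusted p = 0.994), chr13:73159795-73160838, 100.2 kb before Irx4, had -0.07 (SE 0.0707, adjusted p = 0.936), and the Mrpl36 peak had 0.12 (SE 0.0788, adjusted p = 0.848). No other merged peak of the intervals was called in all libraries, so none could enter this fit. By genotype no merged peak passed (0%), and the 7 in the intervals ranged from -0.12 (chr13:73159795-73160838) to 0.11 (chr8:92628726-92629896).

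Some peaks were called in 1 region only. The chromosome 13 interval held 30 merged peaks called in 2 to 12 libraries and the chromosome 8 interval 21, besides the 2 and 5 called in all 13. Of these, 6 and 3 were called in brainstem alone, and 3 and 0 in telencephalon alone. Over all merged peaks in at least 2 libraries, 4.09% were of brainstem alone and 6.00% of telencephalon alone. The peak found in most brainstem libraries among these lay inside Irx5 at chr8:92361786-92363756, 5.02 kb from its start, with calls in 4 of 6 brainstem and 0 of 7 telencephalon libraries and a mean fold of 2.23. With equal peak numbers it was called in 1 brainstem library, and each other peak of brainstem alone in 0. At chr13:72768872-72770842, the promoter of the lincRNA gene Gm47902 between Irx2 and Irx4, a peak was called in 6 of 6 brainstem and 3 of 7 telencephalon lists, with mean folds of 3.33 and 2.82.

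Detection was tested for the 12 interval peaks called in 5 to 8 libraries, among 11706 such peaks, by a two-sided Fisher's exact test. No peak passed for region (0%, with 2.36% under an unadjusted p of 0.05) or genotype (0%, with 1.26%). By region the smallest p in the intervals was 0.286, at chr13:73117261-73118295, called in 2 of 6 brainstem and 5 of 7 telencephalon libraries. On chromosome 8 the smallest was 0.592, shared by chr8:92175151-92177172, chr8:92252358-92253475, chr8:92636865-92637897 and chr8:92723532-92724269. By genotype the chr13:73117261-73118295 peak was called in 6 of 7 K27M and 1 of 6 control libraries (Fisher's exact p = 0.0291, adjusted p = 1), with folds of 2.52 to 3.06. The next were chr13:71979381-71980386, in 5 and 1 (p = 0.103 by Fisher's exact test), and chr8:92175151-92177172, in 2 and 5 (p = 0.103 by the same test). Fisher's exact test ignores the matching of cultures. An exact exchange of labels within culture numbers gave p of 0.12, 0.278, 0.12 and 0.5 for these peaks in the order named.

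Of the 33 other genes that start in the intervals, 8 had a promoter peak in at least 5 libraries. Crnde, Irx3os and Mrpl36 had one in all 13, Gm20554 in 12, Gm36325 and Gm47902 in 9, and Ndufs6 and Gm45334 in 8. The widest merged peaks were the Irx5 and Crnde peak itself (chr8:92355305-92358082, 2778 bp) and, on chromosome 13, a peak between Irx1 and Irx2 (chr13:72297128-72299964, 2837 bp), called in 11 libraries at a mean fold of 2.37. The strongest on chromosome 13 (chr13:72223991-72225433, 261.0 kb from Irx1) was called in 12 libraries, with mean folds of 3.47 in brainstem and 3.84 in telencephalon cultures.

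A list of 22 transcription factors that share borders or partners with Irx proteins in the neural tube gave a comparison, among them Six3, Otx1, Otx2, Gbx2, Pax6, Olig2, Nkx2-2 and the TALE genes Meis1, Meis2 and Pbx3. Of these, 10 had a promoter peak in all 13 libraries, and 0 of the 10 passed for region or genotype (lowest limma adjusted p 0.947 and 0.999, and 0 with an unadjusted p under 0.05 in either). Their median log2 difference of fold was -0.02 by region, where that of all promoters was -0.01. Otx1, a forebrain and midbrain gene, had a peak in 2 of 6 brainstem libraries and 7 of 7 telencephalon libraries. Six3, the partner of Irx3 at the forebrain boundary, had one in 2 brainstem and 0 telencephalon libraries.

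Across the 13 libraries, the within-list percentile of Irx3 and that of Irx5 ran in opposite orders (Spearman rho -0.74), and Irx1 and Irx3 ran together (rho 0.76). The other 8 pairs of open members had rho from -0.54 to 0.48. These values describe 13 libraries that share cultures, regions and list lengths. By the same measure, over 17972 genes with a promoter peak in at least 5 libraries, the genes most like Irx5 were Crnde (rho 1.00, the same peak) and Vaultrc5 (0.86), and those most like Irx3 were Irx3os (1.00, the same peak), Tenm4 (0.89) and the antisense gene Gm15050 (0.87). For Irx1 they were C1ql2 (0.91), Skap2 (0.87) and Gm44077 (0.87), and for Irx2 Gm20554 (1.00, the same peak), Flrt2 (0.95) and Fmnl3 (0.94). For Irx6 they were Col2a1 (0.90), Bfar (0.90) and 3110001I22Rik (0.90). Skap2 and the adjacent Gm44077 had equal mean percentiles in each region, as did Bfar and the overlapping 3110001I22Rik, so neither pair counts as 2 separate likenesses.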

How the data were processed

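ATAC-seq peak lists of 13 libraries were used. Per the labels and the study's methods, the authors trimmed reads (Trim Galore 0.6.7, cutadapt 3.4), aligned them to mm10 (BWA 0.7.17-r1188), removed blacklisted regions and called broad peaks on each library with MACS2 2.2.7.1. The deposited lists give a fold (a ratio to local background, averaged over the peak), −log10 p-values and q-values, and a score, which was not used. The study states a broad cutoff for its ChIP-seq calls and none for these; the lowest deposited −log10 q was 1.00. Nothing was normalised between libraries.

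A gene took the fold of its strongest peak from 2 kb before to 1 kb after any GENCODE M21 start. Log2 folds of features called in all 13 libraries were centred per library and fitted with limma 3.58.1 (trend and robust, R 4.3.3) on 4 group means and the culture number, with Benjamini-Hochberg adjustment at 0.05. This differs from a count test because the lists carry no counts. Features in 5 to 8 libraries were compared by Fisher's exact test, which ignores the matching of cultures. Scripts used Python 3.11.15 and scipy 1.17.1, and the fits were checked on simulated data. Culture numbers follow the study's matched cultures. Deviations from group means correlated at a median of 0.09 (range -0.11 to 0.29, 16 pairs) between libraries of 1 number and -0.02 (47 pairs) otherwise. Whether same-numbered cultures of both regions came from the same pups is not given, so p-values measure the spread between these cultures.

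All members were named. In the intervals the merged peaks with the smallest p (5 by region and 3 by genotype per interval and test), the widest and the strongest were named, with other genes called in at least 5 libraries and the 3 genes most like each member, of which 1 is not reported here. Where ties or the members themselves filled a place, no more were added, and peaks in 1 region only were named after their values were seen. Members and lists were chosen with earlier results of these data known. Alternatives were the block, percentile, centring, equal numbers, stricter p, libraries required, window, weighting, coverage and each library left out.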

Additional observations from a re-analysis of the deposited data

How the results depend on the processing

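The lists set the limits: depth is unknown, a fold is a mean over a peak whose ends differ, and groups hold 3 or 4 cultures. Of the members tested for promoter fold by region, 1 (Irx5) passed. The count was 2 without the replicate block, with Irx3 at 0.364 (adjusted p 0.0381), and 0 with the within-list percentile (Irx5 -52.1 points, adjusted p 0.106), with fold not centred (Irx5 -0.377, adjusted p 0.991), with a window of 1 kb on either side, in which Irx5 was not called in every list, and with percent of window, bases covered or bases times fold, the last 2 chosen after seeing the data. In these 3 the sign of Irx5 turned (26.0 points, 0.713 and 0.259). Leaving out 1 library gave 1 to 2 members, with Irx5 past the threshold 13 of 13 times (-0.516 to -0.414, adjusted p 0.000361 to 0.0299) and Irx3 at 0.317 to 0.408 (adjusted p 0.0287 to 0.52).

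For the 7 merged peaks of the intervals, the count of 1 by region became 2 without the replicate block, 0 with the percentile and 0 with fold not centred, and 0 to 2 with 1 library left out. The chr8:92628726-92629896 peak turned to 0.6 percentile points and to 0.0622 uncentred, and ran from -0.063 to 0.0304 with 1 library left out.

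For genotype 0 members and 0 merged peaks passed under every alternative run. Signs turned at Irx3 without the replicate block (0.00741) and by percentile (3.95 points), at Irx5 and Irx6 by percent of window (-3.08 and -4.05 points), bases covered (-0.161 and -0.13) and bases times fold (-0.0684 and -0.124). With 1 library left out, Irx3 ran from -0.0909 to 0.0131, Irx6 from -0.0574 to 0.0691 and the Mrpl36 peak from -0.0429 to 0.0856. The cause of these changes was not tested. No member passed a test of detection under any alternative. With every list cut to 16879 peaks, promoter calls by region (6 brainstem, 7 telencephalon libraries) numbered 6 against 2 at Irx2 and Irx3. They numbered 5 against 1 at Irx1, 5 against 6 at Irx6 and 6 against 7 at Irx5. Fisher's exact test gave unadjusted p of 0.021 for Irx2 and Irx3 and 0.0291 for Irx1. The adjusted p was 0.765 for each, and 3.81% of the 1839 promoters tested had an unadjusted p under 0.05. The fits of peaks with p at most 1e-10 held no member and gave no value for the intervals, and the rule of 50% overlap left merged peaks as they were. The replicate block changed no other call.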
